A study of Mus musculus with 8 samples.

Results

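Ribosome biogenesis is one of the gene programmes most closely tied to the transcription factor Myc, and 36 genes of it, each widely described as a Myc target, were followed here in whole mouse liver. They were chosen by gene name from the 53816 gene IDs of each deposited table, and all 36 were found once the rows of repeated IDs had been summed. RNA-seq libraries came from the livers of 8 mice, all of them after bile duct ligation, an operation that blocks bile outflow and injures the liver. The control group held 4 wild-type mice. The other group held 4 mice whose genotype label reads LSEC Myc overexpression, that is, Myc raised in liver sinusoidal endothelial cells, and they are called Myc-labelled below. No mice without ligation were compared. The sources used here do not give the promoter that drives Myc, whether a transgene was counted as Myc, or the sex, age and litter of the mice. Values are TPM, a relative abundance that accounts for transcript length and sums to 1000000 in each library.

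Ribosomes are assembled in the nucleolus. RNA polymerase I transcribes the long precursor of ribosomal RNA, small nucleolar ribonucleoproteins (snoRNPs) guide its methylation and pseudouridylation, and separate sets of assembly factors cut and fold it into the small and large subunits. Myc binds DNA as a dimer with Max, preferably at the E-box CACGTG, and in many growing cells raises genes of each of these steps. The 36 genes are taken in that order: 7 of polymerase I transcription and nucleolar organisation, 7 of snoRNPs, 7 of small subunit assembly and 15 of large subunit assembly.

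Because Myc binds preferably at the E-box CACGTG, the promoters of the list that hold this sequence are shown first. RefSeq promoter windows on GRCm38.p6, which is mm10, were at hand for 30 of the 36 genes and run from 250 bases before the transcription start to 50 after it. Windows for Npm1, Fbl, Tcof1, Rrp12, Rrs1 and Bop1 were not used here. The motif CACGTG, which reads the same on both strands, lay in the windows of 7 of the 30 genes (23.3%), against 8.09% of the 27025 genes in the table and 11.8% of those tested below. The matches are printed 5′ to 3′ on the strand of the gene with the E-box in capitals, and the position of its first base from the start site follows the coordinates.
Mybbp1a, chr11:72441355-72441376, plus strand, position 41: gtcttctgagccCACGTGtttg
Pes1, chr11:3963965-3963994, plus strand, position 3: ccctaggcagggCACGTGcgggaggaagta
Wdr43, chr17:71616220-71616249, plus strand, position 18: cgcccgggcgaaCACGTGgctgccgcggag
Nop2, chr6:125131811-125131840, plus strand, position -60: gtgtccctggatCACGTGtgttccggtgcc
Grwd1, chr7:45830740-45830767, minus strand, position 35: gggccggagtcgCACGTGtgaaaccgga
Imp4, chr1:34439696-34439725, plus strand, position -121: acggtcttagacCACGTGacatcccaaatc
Utp20, chr10:88826765-88826789, minus strand, position 38: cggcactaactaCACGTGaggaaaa
In Nop2 and Imp4 the E-box lies upstream of the start, and in the other 5 it lies in the first transcribed bases. These matches describe the letters only. No binding was measured.

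The Myc transcript did not follow the labels. Myc (ENSMUSG00000022346.15, mm10 chromosome 15, 61985391 to 61990374, plus strand) stood at 272, 207, 554 and 89.2 TPM in control mice 1 to 4 and at 339, 356, 25.6 and 249.2 TPM in Myc-labelled mice 1 to 4. The highest level of the series was therefore in a control liver and the lowest in a Myc-labelled one, and the groups overlapped throughout. The means were 281 ± 198 TPM in controls and 242 ± 152 TPM in Myc-labelled livers (SD, n = 4 each). An exact two-sided permutation test of the group means of log2(TPM + 1) gave p = 0.714. The smallest p that 70 assignments allow is 0.0286. On the log2(TPM + 1) scale the difference, Myc-labelled minus control, was -0.45 ± 0.95 (SE), with a 95% interval from -2.68 to 1.77. It turned positive, to 0.43, without Myc-labelled mouse 3. A bulk liver library measures Myc of endothelial cells together with that of every other cell, and in it fewer cells of a type and less RNA per cell cannot be told apart. Because Myc varied 21.7-fold between livers without regard to label, the 36 genes were compared in 2 ways: between the labelled groups, and along the measured Myc level over all 8 livers.

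Library facts that touch both comparisons are few. Aligned bases were estimated from the most common ratio of deposited coverage to FPKM and ran from 5.29 to 6.74 Gb. Only 14.5% to 15.9% of genes above 1 FPKM shared that ratio. In the 8 libraries 12445 to 13641 genes reached 1 TPM. Myc-labelled liver 1 held the highest value of the 8 libraries for 35.8% of the 13055 tested genes (mean of at least 1 TPM), and Myc-labelled liver 3, the one with the least Myc, held the lowest for 35.5%. Hepatocyte transcripts were abundant, as the labelled tissue requires, with Alb (albumin) at 41497 to 95736 TPM, and estimates were higher in the Myc-labelled group for 1 of 8 hepatocyte markers. For 5 erythroid markers they were higher in 5, with summed TPM of 354 to 1773 in controls and 735 to 1593 in Myc-labelled livers. Summed TPM of 8 endothelial markers was 130 to 200 in controls and 94.3 to 181 in Myc-labelled livers, with estimates higher in the Myc-labelled group for 1 of the 8. The same sums were 632 to 930 and 398 to 858 for 8 Kupffer cell and macrophage markers, 14.5 to 70.1 and 26.8 to 160.0 for 7 neutrophil markers, 102 to 324 and 120 to 972 for 7 cholangiocyte markers and 21.4 to 94.6 and 28.3 to 197 for 7 stellate cell markers. Spp1 alone made up most of the cholangiocyte sum, at 80.5 to 296 TPM in controls and 104 to 939 TPM in Myc-labelled livers. Estimates were higher in the Myc-labelled group for 1 of the 8 macrophage markers, 7 of the 7 neutrophil, 7 of the 7 cholangiocyte and 6 of the 7 stellate cell markers. None of the 7 lymphocyte markers reached a mean of 1 TPM, and Cd3e, Cd3d, Cd8a, Cd79a, Ms4a1 and Trac were listed at 0 in at least 1 library. The part of these cell types in the results below was not tested.

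No ribosome biogenesis gene of the 36 differed between the labelled groups after adjustment, although most estimates leaned to the Myc-labelled side. All 36 passed the expression filter, with means over the 8 livers from 3.32 TPM (Tcof1, which encodes treacle, a nucleolar partner of polymerase I) to 165.5 TPM (Npm1, the nucleolar chaperone nucleophosmin). By limma on log2(TPM + 1), with Benjamini-Hochberg adjustment over 13055 genes, 0 of the 36 passed 0.05, and so did 0% of all tested genes. At an unadjusted p under 0.05 there was 1, Nop58, which was higher, where 1.26% of tested genes were higher and 0.597% lower (1.86% in all). The estimate was above 0 in 31 of the 36, against 58% of tested genes, and the median difference was 0.11 against 0.04 for all tested genes. Single estimates ran from -0.11 for Polr1a to 0.44 for Nop58. The median half-width of their 95% intervals was 0.39 on the log2 scale, so a difference of the size of the median lay well inside the error of any 1 gene. When libraries were rescaled by median-of-ratios factors, which set the median difference of all tested genes to 0.00, the estimate was above 0 in 26 of the 36 and their median was 0.07. The median moved with single libraries. It was 0.06 without Myc-labelled liver 1 (22 of 36 above 0; all tested genes -0.04) and 0.18 without Myc-labelled liver 3 (35 of 36; all tested genes 0.11). Without control 1 it was 0.04 and without control 2 it was 0.18, the controls with the lowest and the highest average over the 36 genes.

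**Figure D1:**
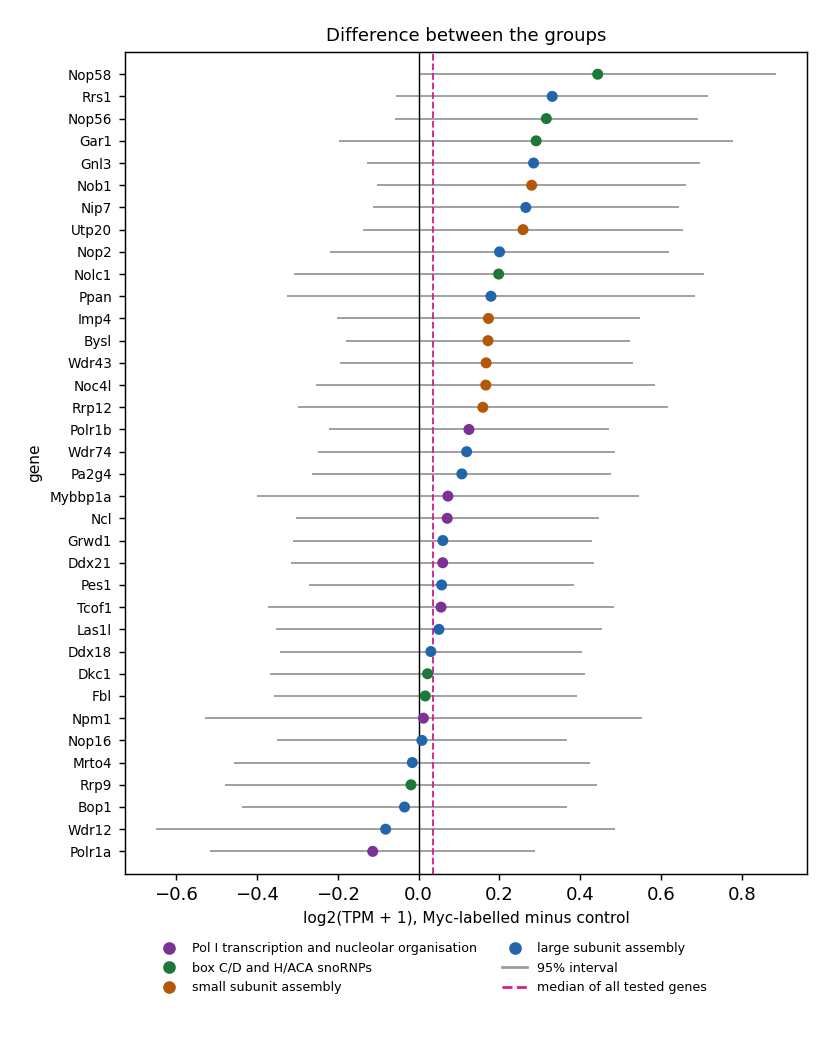
Difference between Myc-labelled and control livers, log2(TPM + 1), for each of the 36 genes in order of the estimate, with role as colour. Points are limma estimates, bars their 95% intervals (n = 4 each), and the dashed line is the median of all 13055 tested genes; 31 points lie right of 0, and only the interval of Nop58 does not cross it.

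In the snoRNP group, estimates were above 0 for 6 of 7 genes with a median of 0.20, and after scaling for 4 of 7 with a median of 0.16. Nop58 (ENSMUSG00000026020.9, chromosome 1, 59684971 to 59719044, plus strand) and Nop56 encode the paired scaffold proteins of the box C/D snoRNP, which carries out ribose methylation. Nop58 stood at 5.41, 5.19, 5.77 and 3.49 TPM in controls and at 6.76, 8.59, 5.26 and 7.82 TPM in Myc-labelled livers. Myc-labelled livers 1, 2 and 4 lay above every control, while liver 3 lay among them. Its means were 4.96 ± 1.01 and 7.11 ± 1.44 TPM (SD, n = 4 each), and the difference of 0.44 ± 0.20 had an unadjusted p of 0.0491 and an adjusted p of 1.0 by limma. Nop56 stood at 21.4, 27.1, 24.6 and 17.9 TPM in controls and 30.8, 28.4, 23.7 and 30.7 TPM in Myc-labelled livers, a difference of 0.32 ± 0.17. Its pattern was the same as that of Nop58, with Myc-labelled liver 3 alone inside the control range.

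Gar1, a core protein of the H/ACA snoRNP that guides pseudouridylation, stood at 12.2, 16.3, 12.7 and 8.61 TPM in controls and 18.6, 14.6, 10.7 and 17.8 TPM in Myc-labelled livers, a difference of 0.29 ± 0.22 with overlapping groups. Dkc1, the pseudouridine synthase of the same particle, had nearly equal means of 7.95 ± 1.19 and 8.13 ± 1.59 TPM. Fbl, the methyltransferase fibrillarin, was equally close at 43.7 ± 3.64 and 44.7 ± 8.26 TPM. Rrp9, which belongs to the U3 snoRNP that acts in early precursor cleavage, had means of 10.8 ± 1.97 and 10.7 ± 2.77 TPM. Nolc1, a chaperone of snoRNPs, had means of 16.1 ± 5.24 and 18.0 ± 2.56 TPM. Proteins of 1 particle thus did not share a difference: Nop58 and Nop56 had the widest gaps of the 36 with Rrs1, and their partner Fbl had almost none, though differences between genes were not tested.

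Among small subunit assembly factors all 7 estimates were above 0, as deposited and after scaling, with medians of 0.17 and 0.14, and none passed the test. Nob1, the endonuclease of the last cut of small subunit ribosomal RNA, stood at 11.2, 15.5, 14.8 and 9.88 TPM in controls and 14.4, 14.7, 16.8 and 16.5 TPM in Myc-labelled livers, a difference of 0.28 ± 0.17. Control livers 1 and 4 were low and the other 6 livers lay close together. Utp20, a large scaffold of the early small subunit precursor, stood at 2.92, 3.86, 3.89 and 4.21 TPM and at 5.44, 4.17, 3.95 and 5.04 TPM, a difference of 0.26 ± 0.18. Here the 2 groups overlapped only between Myc-labelled livers 2 and 3 and control liver 4. The remaining 5 had differences from 0.16 (Rrp12, an export factor) to 0.17 (Imp4, of the U3 complex), with Wdr43, Bysl and Noc4l between them. Rrp12 ran from 2.90 to 6.18 TPM over the 8 livers, Imp4 from 8.07 to 12.5, Wdr43 from 12.7 to 19.2, Bysl from 6.73 to 9.83 and Noc4l from 8.82 to 15.9. For Rrp12, Noc4l and Bysl the lowest liver was control 1.

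In large subunit assembly 12 of 15 estimates were above 0, with a median of 0.06, and after scaling 10 of 15, with a median of 0.02. Rrs1, a factor of early large subunit precursors, stood at 19.2, 25.8, 21.4 and 18.5 TPM in controls and 32.3, 24.9, 29.3 and 21.6 TPM in Myc-labelled livers. Its difference was 0.33 ± 0.18, and Myc-labelled livers 2 and 4 lay inside the control range. Gnl3, the GTP-binding nucleostemin, stood at 29.3, 40.5, 31.9 and 22.1 TPM and at 39.4, 39.3, 34.6 and 35.3 TPM, a difference of 0.28 ± 0.19. The highest Gnl3 level of the series was in control liver 2, and the spread was wider among controls (SD 7.62) than among Myc-labelled livers (SD 2.58).

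Nip7, which takes part in precursor processing, was the 1 gene of the 36 whose groups did not overlap, where 1.26% of tested genes had groups apart in either direction. It stood at 7.43, 7.37, 7.06 and 4.94 TPM in controls and at 8.56, 7.57, 7.51 and 9.12 TPM in Myc-labelled livers. The gap between control liver 1 and Myc-labelled liver 3 was small beside the spread, and the difference was 0.27 ± 0.17 with an unadjusted limma p of 0.151. Pes1, Bop1 and Wdr12 form the PeBoW complex of large subunit processing, and their differences were 0.06 ± 0.15, -0.03 ± 0.18 and -0.08 ± 0.26. Single libraries moved several of the estimates by label. Without control 4 the differences were 0.15 for Nip7, 0.14 for Gnl3, 0.14 for Gar1 and 0.17 for Nob1. Without control 1 the difference of Utp20 was 0.17, and without Myc-labelled liver 3 that of Gar1 was 0.44. The other members had differences from -0.02 (Mrto4) to 0.20 (Nop2, a ribosomal RNA cytosine methyltransferase). Between them lay Nop16, Ddx18, Las1l, Grwd1, Pa2g4, Wdr74 and Ppan.

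For polymerase I transcription and nucleolar organisation, 6 of 7 estimates were above 0 and the median was 0.06, and after scaling 5 of 7 were, with a median of 0.03. Polr1a, the largest subunit of the polymerase, had the lowest estimate of the list. It stood at 5.27, 6.94, 6.81 and 5.93 TPM in controls and 6.13, 5.76, 6.87 and 4.18 TPM in Myc-labelled livers, a difference of -0.11 ± 0.18. Polr1b, the second largest subunit, had means of 9.30 ± 0.994 and 10.3 ± 1.32 TPM. Tcof1 stood at 2.20, 3.42, 3.70 and 3.71 TPM and at 3.56, 3.18, 2.90 and 3.90 TPM. Ncl, the nucleolar RNA-binding protein nucleolin, had means of 42.9 ± 5.47 and 45.3 ± 7.25 TPM, the helicase Ddx21 21.8 ± 3.94 and 22.6 ± 3.08 TPM, and the nucleolar protein Mybbp1a 32.6 ± 10.3 and 33.3 ± 3.60 TPM. In each of these the groups overlapped.

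Along the measured Myc level most of the 36 genes leaned upward, as most tested genes did, and none passed the test after adjustment. The slope, the change in log2(TPM + 1) for each doubling of Myc TPM + 1, was positive in 31 of the 36, against 73.8% of all 13054 other tested genes. The median slope was 0.04, against 0.05 over all tested genes, and 15 of the 36 slopes were above that all-gene median. Without Myc-labelled liver 3 the median slope was 0.07, against 0.01 over all tested genes. In the limma fit 0 of the 36 passed an adjusted p of 0.05, where 0.0306% of tested genes did, and the lowest adjusted p was 0.458. At an unadjusted p under 0.05 there were 2, Wdr12 and Ddx18, both with positive slopes, or 2 of 36 against 8.73% of tested genes with positive and 0.735% with negative slopes (9.46% in all). By exact permutation of Pearson's r, 0 of the 36 passed after adjustment over 13054 genes (0% of all), and the same 2 had an unadjusted p under 0.05 (7.89% of all). By Spearman's rho 0 of the 36 did, before or after adjustment, against 3.91% and 0% of all tested genes. The median half-width of the 95% interval of a slope was 0.15.

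**Figure D2:**
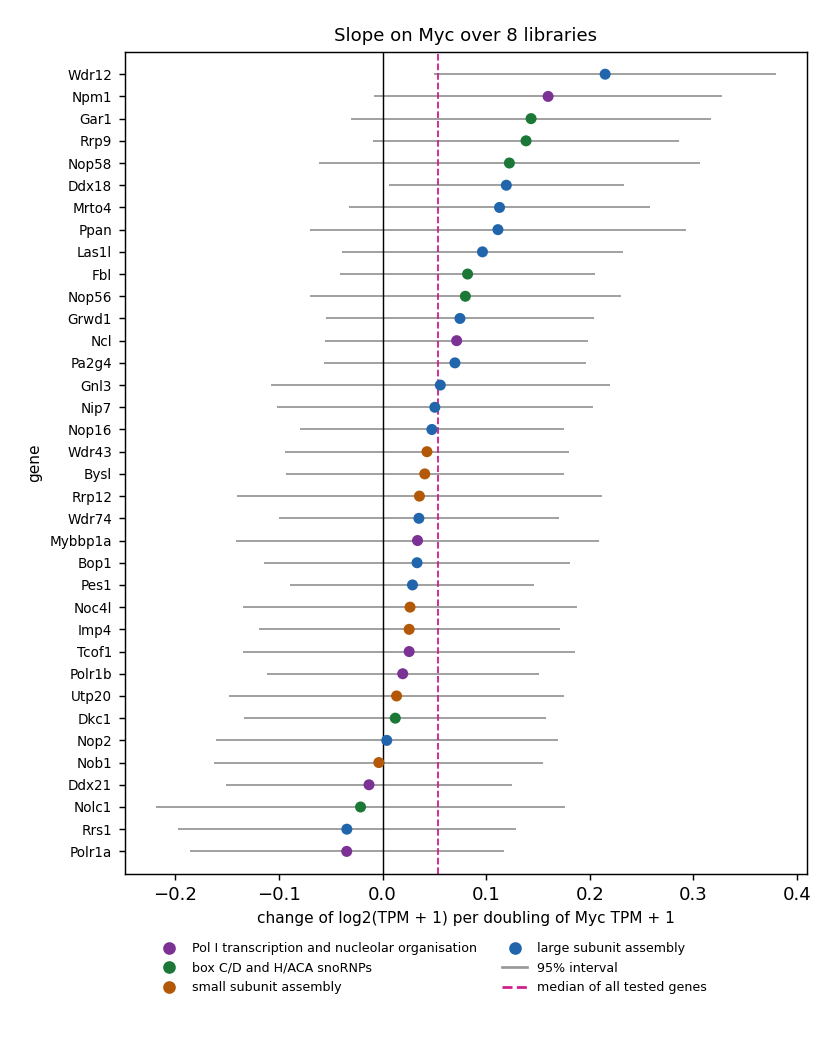
Slope of log2(TPM + 1) per doubling of Myc TPM + 1 over 8 livers for each of the 36 genes. Genes are in order of the slope, with role as colour. Points are limma estimates, bars their 95% intervals, and the dashed line is the median of all tested genes (0.05); the intervals of Wdr12 and Ddx18 alone stay above 0, and neither passed adjustment.

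Wdr12, of the PeBoW complex, had the steepest slope. It stood at 3.503, 6.32, 7.04 and 4.71 TPM in control livers and 5.87, 5.996, 2.74 and 5.73 TPM in Myc-labelled livers. Its highest level was in the control liver with the most Myc, and its lowest in the Myc-labelled liver with the least. The slope was 0.21 ± 0.07 (95% interval 0.05 to 0.38), with an unadjusted limma p of 0.0153 and an adjusted p of 0.458. Pearson's r was 0.78 (exact permutation p = 0.0268, adjusted 0.602) and Spearman's rho 0.67 (exact permutation p = 0.0831, adjusted 0.954). Without the 2 livers farthest from the median of Myc, control 4 and Myc-labelled 3, r was 0.37. Those 2 livers supply most of the range of Myc, which falls from 21.7-fold to 2.68-fold without them.

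Ddx18, a helicase of large subunit assembly, was almost level in controls, at 15.5, 15.7, 16.5 and 15.3 TPM, and stood at 19.1, 17.1, 11.7 and 17.5 TPM in Myc-labelled livers. Only Myc-labelled liver 3 was low. The slope was 0.12 ± 0.05 (95% interval 0.01 to 0.23, adjusted limma p 0.516), r was 0.86 (exact permutation p = 0.0145, adjusted 0.602) and rho was 0.67. Without the 2 livers r was 0.25. Across the controls, where Myc ran from 89.2 to 554 TPM, Ddx18 stayed within 15.3 to 16.5 TPM, with its lowest and highest values in the controls with the least and the most Myc. Without Myc-labelled liver 3 the slope of Ddx18 was 0.07 ± 0.10 and that of Wdr12 0.15 ± 0.14.

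Npm1, Rrp9, Gar1 and Mrto4 were next in order of p, and in none did r stay positive without the same 2 livers. Npm1 stood at 202, 185, 137 and 130.1 TPM in controls and 211, 152, 108 and 199 TPM in Myc-labelled livers. Its slope was 0.16 ± 0.08 (adjusted limma p 0.55) and r 0.63 (exact permutation p = 0.0808), but r was -0.71 over the other 6 livers. The control liver with the most Myc had 137 TPM of Npm1, less than controls 1 and 2. Rrp9 moved almost as Npm1 did, at 12.03, 12.8, 9.67 and 8.56 TPM and at 13.3, 9.81, 7.26 and 12.6 TPM, with a slope of 0.14 ± 0.07, r of 0.67 and -0.74 over the 6 livers. Gar1 had a slope of 0.14 ± 0.08, r of 0.56 and -0.43 over the 6.

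Mrto4, a ribosome assembly factor related to the stalk protein P0, stood at 28.2, 32.5, 24.6 and 22.7 TPM and at 35.6, 23.6, 19.9 and 29.3 TPM. Its slope was 0.11 ± 0.07, with r of 0.58 and -0.55 over the 6. Las1l, which belongs to the machinery that cuts the second internal spacer, stood at 17.6, 24.9, 20.0 and 20.0 TPM and at 26.5, 23.0, 16.01 and 20.7 TPM, with a slope of 0.10 ± 0.06, r of 0.58 and -0.16 over the 6. Nop58, highest by label, had a slope of 0.12 ± 0.08, r of 0.50 and rho of 0.69 (exact permutation p = 0.0694). The estimated slopes of Npm1, Rrp9, Gar1, Mrto4 and Las1l were negative in the 6 livers. Leaving out Myc-labelled liver 3 alone lowered the slopes of Npm1, Rrp9, Mrto4 and Las1l to 0.07, 0.07, 0.05 and 0.03. The same omission raised that of Nop58 to 0.31 ± 0.15 and that of Gar1 to 0.23 ± 0.15, neither past adjustment, and leaving out control 4 lowered that of Nop58 to 0.07. At the other end, Polr1a and Rrs1 had the most negative slopes, both -0.03 ± 0.07, with r of -0.23 and -0.17. The slopes of Ddx21, Nolc1 and Nob1 were also below 0.

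**Figure D3:**
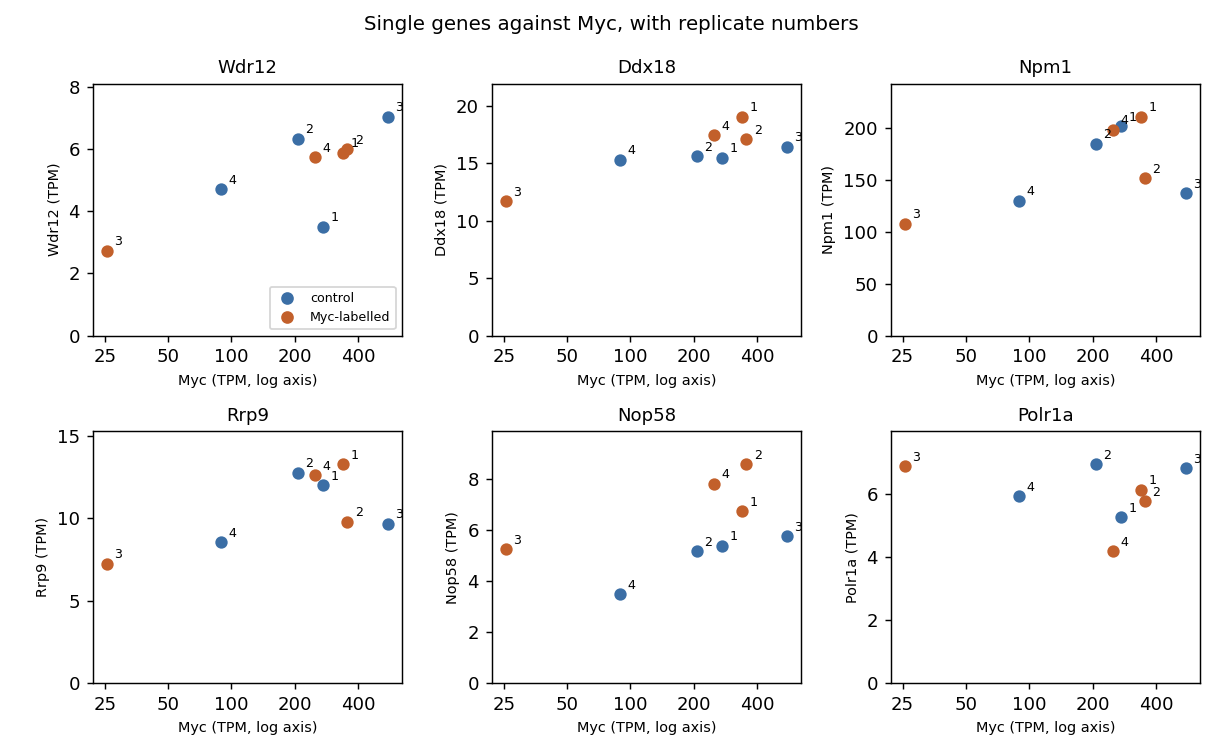
TPM of Wdr12, Ddx18, Npm1, Rrp9, Nop58 and Polr1a (linear axes) against Myc TPM (log axis) in the 8 livers, with replicate numbers beside the points and colours for the labelled groups. Wdr12 and Ddx18 are lowest in Myc-labelled liver 3 (25.6 TPM of Myc), while Npm1 and Rrp9 do not follow Myc among the livers from 207 to 554 TPM.

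Over the whole list the pattern was the same. The median r with Myc was 0.30 over 8 livers and -0.13 over 6, and r was above 0 in 31 of the 36 and in 11 of the 36 respectively. Over all tested genes the median r was 0.27 over 8 livers and 0.04 over 6, where r was above 0 in 6993 of 13054. After median-of-ratios scaling, which lowers Myc-labelled liver 1 and raises Myc-labelled liver 3, 15 of the 36 slopes were positive with a median of -0.01, and the median of all tested genes was -0.00. By role, positive slopes were found as deposited in 5 of 7 polymerase I and nucleolar, 6 of 7 snoRNP, 6 of 7 small subunit and 14 of 15 large subunit genes, and after scaling in 2, 5, 0 and 8 of them. The direction of many slopes thus depended on the scale on which libraries were compared. The slopes of Wdr12 and Ddx18 stayed positive after scaling, at 0.18 and 0.07. With libraries weighted by their residual spread, 2 of the 36 passed, Wdr12 (adjusted p 0.0225) and Ddx18 (adjusted p 0.0436). In that weighted fit 1030 of the 13054 tested genes passed with positive slopes and 83 with negative ones, a larger share than 2 of 36.

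The level of the list was then followed liver by liver. Averaged over the 36 genes and centred on the mean of the 8 livers, log2(TPM + 1) was -0.20, 0.14, 0.00 and -0.20 in controls 1 to 4 and 0.24, 0.01, -0.13 and 0.13 in Myc-labelled livers 1 to 4. The same average over all tested genes was -0.07, -0.03, -0.02 and 0.04 in controls and 0.25, 0.01, -0.23 and 0.04 in Myc-labelled livers. The ribosome biogenesis genes were thus high in Myc-labelled liver 1 and low in liver 3 to a similar extent as all genes in liver 1 and to a lesser one in liver 3, and were low in controls 1 and 4, where the average of all genes was -0.07 and 0.04. Control 3, with the most Myc of all, stood at the 8-liver mean of the list. After scaling, the averages were -0.14, 0.16, 0.02 and -0.21 in controls and -0.01, -0.00, 0.09 and 0.10 in Myc-labelled livers. Myc-labelled liver 3, with 25.6 TPM of Myc, was then above control 3, with 554 TPM. As a description over the 8 livers, the list average had r of 0.47 with Myc as deposited and -0.02 after scaling, and the average of all tested genes had r of 0.59 as deposited.

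**Figure D4:**
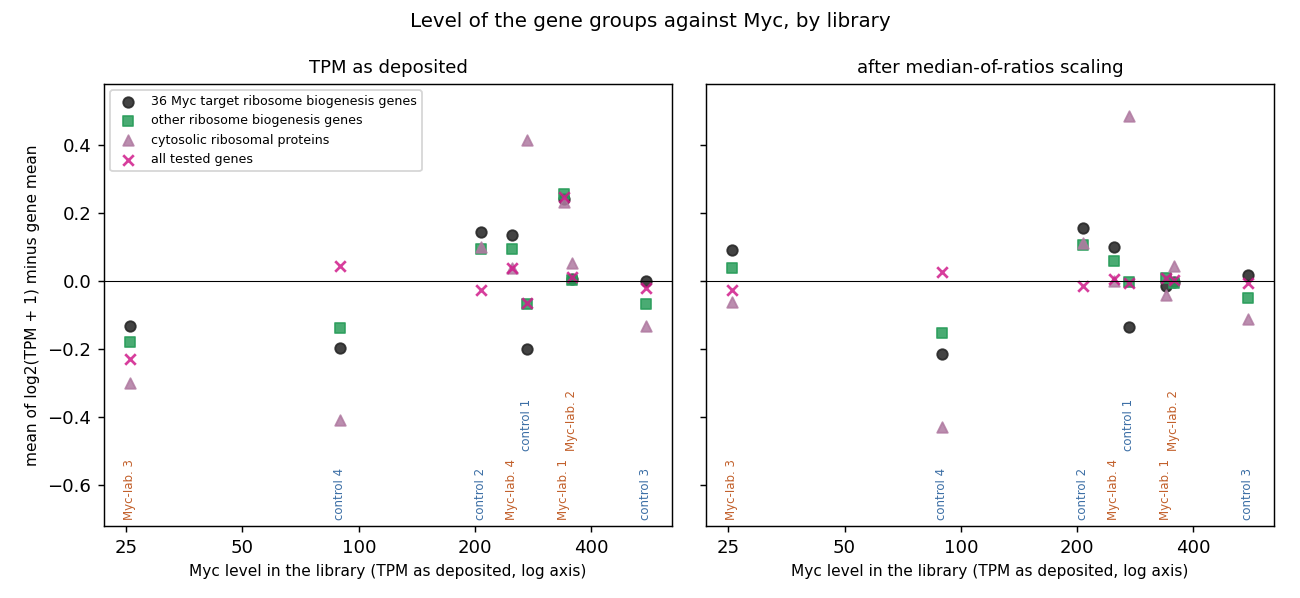
Mean centred log2(TPM + 1) in each liver against Myc TPM (log axis) for the 36 genes, the other ribosome biogenesis genes, cytosolic ribosomal protein genes and all tested genes, as deposited (left) and after median-of-ratios scaling (right). As deposited all 4 sets are low in Myc-labelled liver 3 and high in Myc-labelled liver 1; after scaling the 36 genes lie at 0.09 in liver 3 and 0.02 in control 3.

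Within the list the genes were more alike to each other than to Myc. Over the 630 pairs of the 36 genes, the median r of log2(TPM + 1) across the 8 livers was 0.50, and 9.21% of pairs were above 0.8. Pairs of 1 of the 36 with any other tested gene had a median r of 0.22, with 2.94% above 0.8, and all these pairs share the same 8 libraries. After scaling the medians were 0.34 and -0.00. Closest to the mean of the other 35 were Ppan (r 0.96), a large subunit assembly factor, Ncl (0.93) and Gar1 (0.91). Farthest were Polr1a (-0.09), Bop1 (0.23), Dkc1 (0.28) and Fbl (0.36). The closest pair was Npm1 with Rrp9 (0.98), and the most opposed was Polr1a with Fbl (-0.83).

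The spread of the list was below that of the median gene. Its median SD within groups was 0.21 on the log2 scale, against 0.30 for all tested genes. The ratio of the highest to the lowest liver ran from 1.34 for Pes1 to 2.57 for Wdr12. Myc-labelled liver 1 was the highest liver for 17 of the 36, control 2 for 8 and Myc-labelled liver 4 for 8. The lowest liver was control 1 for 13, control 4 for 10 and Myc-labelled 3 for 10. After scaling, Myc-labelled liver 1 was the highest for 0, and control 2 for 12.

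**Figure D5:**
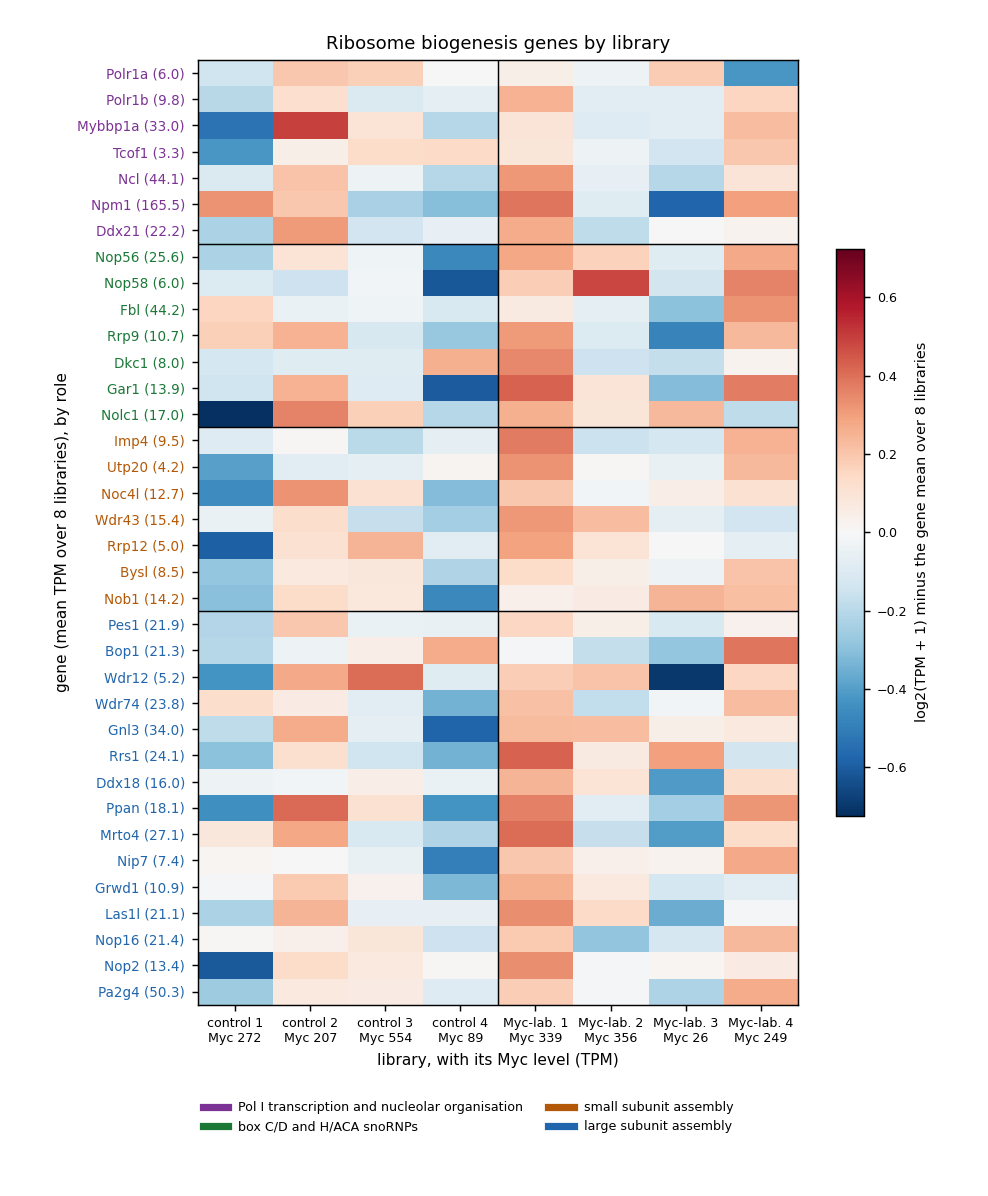
Centred log2(TPM + 1) of the 36 genes (rows, by role) in the 8 livers (columns), with Myc TPM under each column. Colours run from below to above the mean of each gene over the 8 livers; controls 1 and 4 and Myc-labelled liver 3 are low for most rows, and Myc-labelled liver 1 is high.

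A length-related shift stood beside the low level of control 1. In that liver the shortest tested genes (longest annotated transcript up to 2198 bases) had a median of 0.11 on the centred log2 scale. The longest (over 3943 bases) had a median of -0.18. The 18 shorter genes of the 36 had a mean of -0.11 there, and the 18 longer ones a mean of -0.29. Myc-labelled liver 3, with the least Myc, had the opposite order, at -0.29 for the shortest tested genes and -0.12 for the longest. In it the shorter and longer genes of the 36 stood at -0.16 and -0.10. Smaller orders in either direction were seen elsewhere, as in control 2 (-0.08 and 0.04) and Myc-labelled liver 4 (0.08 and -0.02) over the tested genes. Cytosolic ribosomal protein genes, which are short, stood at 0.41 in control 1 and -0.41 in control 4. Npm1, Rrp9 and Mrto4 followed the ribosomal protein average (r 0.87, 0.82 and 0.73 over 8 livers), and Tcof1 went against it (-0.47). Whether transcript length or RNA quality had a part in the members' values was not tested.

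The rest of the pathway was read in the same way. Of 112 other ribosome biogenesis genes that were tested, 0 passed in either comparison. The estimate was higher in the Myc-labelled group for 88 of them (median 0.10), and after scaling for 75. Slopes on Myc were positive for 93 (median 0.06) and after scaling for 61. By step, estimates were above 0 between groups for 10 of 14 other polymerase I genes, 7 of 11 snoRNP genes, 35 of 42 small subunit genes and 36 of 45 large subunit genes, and after scaling for 9, 3, 31 and 32 of them. The other snoRNP genes had a median difference of 0.02 as deposited and -0.02 after scaling, where the snoRNP genes of the 36 had 0.20 and 0.16; this gap was not tested. The smallest p along the Myc level belonged to Polr2l and Polr2h, subunits shared by the nuclear polymerases (slopes 0.18 ± 0.05 and 0.15 ± 0.08), Znhit6 and Znhit3 of snoRNP assembly (0.19 ± 0.07 and 0.14 ± 0.06), Wdr36 and Ddx52 of the small subunit (0.14 ± 0.06 and 0.13 ± 0.06), and Nsa2 and Rsl1d1 of the large subunit (0.12 ± 0.06 each). The lowest adjusted limma p among them was 0.42, for Polr2l. Polr2h had its second lowest level in Myc-labelled liver 3, and the other 7 had their lowest there.

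The 78 cytosolic ribosomal protein genes, the products that these factors assemble, had 39 estimates above 0 by label and a median of 0.00 as deposited, and 27 above 0 with a median of -0.04 after scaling. Along the Myc level 77 of the 78 slopes were positive with a median of 0.11, and 74 stayed positive after scaling, but 0 passed adjustment. Over the 6 livers without the extremes of Myc, r was above 0 in 4 of the 78. Rpl39 and Rps29 had the smallest p, with slopes of 0.24 ± 0.08 and 0.22 ± 0.08 and an adjusted limma p of 0.458 each. Markers of proliferating cells had summed TPM of 34.1 to 64.4 in controls and 31.3 to 59.7 in Myc-labelled livers, with 2 of the 8 tested estimates higher by label and 8 of 8 slopes on Myc positive. Pcna alone made up most of this sum, at 27.8 to 36.3 TPM in controls and 25.4 to 46.3 TPM in Myc-labelled livers. The centred log2 average of the 8 tested markers was -0.38, -0.46, 0.42 and 0.73 in controls 1 to 4, and -0.52 to 0.15 in Myc-labelled livers.

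The genes with an E-box in the promoter window did not have the steepest slopes. Their median slope was 0.03 (7 genes) and that of the genes with a window but no CACGTG was 0.06 (23 genes). Between groups the medians were 0.17 and 0.12. Neither Wdr12 nor Ddx18 holds the motif in its window, which says only that these letters are not there. The list shared 1 further feature: 5 of the 36 genes (13.9%) span genes named Snord or Snora on the same strand in the deposited coordinates. The share was 0.606% of the 13027 tested genes other than snoRNAs. Genes inside a span without such a name, as Gm24067 and Gm23008 in Ppan, were not counted. The 5 hosts by name are Ncl (Snord82 and Snora75), Nop56 (Snord57 and Snord110), Nop58 (Snord70 and Snord11), Wdr43 (Snord53 and Snord92) and Gnl3 (Snord69 and Snord19). Of these 5, Nop58, Nop56 and Gnl3 were among the 8 genes with the smallest p by label, and none was past adjustment.

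Some values carry an uncertainty of origin. Of the 36 genes, 8 are overlapped on the other strand by a gene with a mean of at least 1 TPM: Mybbp1a by Spns2, Nop56 by Idh3b, Rrp9 by Parp3, Dkc1 by Mpp1, Bysl by Ccnd3, Bop1 by Mroh1, Wdr12 by Carf and Gnl3 by Pbrm1. The sources used here do not say whether strand was used in quantification, so reads within the overlaps cannot be told apart. For Rrp9 the overlap with Parp3 is 987 bases. It is 399 bases for Wdr12, 361 for Bysl and 131 for Mybbp1a. For Bop1, Dkc1, Gnl3 and Nop56 it is only 50, 45, 15 and 5 bases. Mrto4 has 2 pseudogene copies by name, between which reads can be split. Copies of the 36 genes that are not named after the gene were not looked for.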

How the data were processed

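RNA-seq libraries were made from total liver RNA with an mRNA kit, 4 control and 4 Myc-labelled, per the labels' protocols. The tools HISAT2 and StringTie and the build mm10 are named per the submitters' processing notes; the sources used here give no versions or strand settings. TPM, the unit analysed, FPKM and coverage (a signal not scaled for depth) were deposited by the authors for each gene ID. Read counts were not used, and depth per gene was not examined. Aligned bases came from the modal ratio of coverage to FPKM.

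Groups were taken from the labels, which give no batch or date. Rows of a repeated ID (10 to 15 per library) were summed. Genes averaging 1 TPM or more were fitted on log2(TPM + 1), a scale that understates changes of low genes, with limma 3.58.1 (R 4.3.3; trended, robust, two-sided), by group and, apart, with log2(Myc TPM + 1) as covariate, with Benjamini-Hochberg adjustment over all tested genes at 0.05. Pearson and Spearman correlations were tested over all 40320 pairings (smallest p 2.48e-05), also without the 2 libraries farthest from the Myc median. Python 3.11.15, pandas 2.3.3, numpy 2.4.6, scipy 1.17.1 and matplotlib 3.10.9 did the rest. Both fits were tested on simulated data with noise drawn apart for each gene, so shifts of whole libraries, as in Myc-labelled livers 1 and 3, were absent. Changes were put into better expressed genes only, which left out Wdr12 and Nop58 (means of 5.24 and 6.04 TPM). The recovery rates therefore do not cover those 2 genes. Over 5 runs, 34 unchanged genes were called in the group fit and 50 in the Myc fit. The group fit recovered 52% of genes changed by 1 log2 unit and 91.6% of those changed by 2. The Myc fit recovered 75.6% of genes with slopes of size 0.5 and 95.8% with slopes of size 1. Changes as small as the medians of the list were not simulated.

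The members and lists were chosen with earlier results of these data known. Named in full were the 8 members with the smallest p in each fit, those with the highest and lowest mean and the 2 with the most negative slope; of other lists, the 2 with the smallest p along Myc. Transcript lengths came from GENCODE M21. Promoters came from RefSeq; short contexts of all 7 matches are printed in place of the planned windows of up to 4 genes. Alternatives were other pseudocounts (0.1 and 5), expression filters, FPKM, median-of-ratios scaling, quantile normalisation, array weights, the replicate number as a block, group as a further term, and each library left out.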

Additional observations from a re-analysis of the deposited data

Results flagged for a closer look

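Of 76 sets of 4 libraries, 3 held a value far from the other 3 by Dixon's criterion, which chance meets in about 1 set in 20. Dkc1 stood at 9.73 TPM in control liver 4, above 7.20 to 7.44 TPM in the other controls. Wdr12 stood at 2.74 TPM in Myc-labelled liver 3, below 5.73 to 5.996 TPM in the others of that group. Nip7 stood at 4.94 TPM in control liver 4, below 7.06 to 7.43 TPM in the other controls.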

How the results depend on the processing

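No call among the 36 genes was gained or lost between the labelled groups, or along Myc, under the alternatives run, except with array weights, where 2 passed along Myc. In that fit 1030 of the 13054 tested genes passed with positive slopes and 83 with negative ones, a larger share than 2 of 36. The Myc difference between groups turned positive with array weights (0.23) and ran from -0.91 to 0.43 when 1 library was left out, the latter without Myc-labelled replicate 3. The median slope was -0.014 with median-of-ratios scaling, -0.0063 with quantile normalisation and -0.051 without the 2 libraries farthest from the median of Myc. There the slopes were -0.36 for Npm1, -0.28 for Rrp9, -0.20 for Gar1, -0.25 for Mrto4, -0.067 for Las1l and 0.15 for Polr1a. With 1 library left out, slopes ran from -0.069 to 0.035 for Polr1a and from -0.075 to 0.13 for Rrs1, the median difference of the list from 0.04 to 0.18 and its median slope from 0.03 to 0.07. Leaving out Myc-labelled replicates 1 and 3 together, an alternative chosen after seeing the data, gave 0.37 for the Myc difference and slopes of -0.0024 for Las1l, 0.029 for Polr1a and 0.079 for Rrs1. The cause of these changes was not tested.

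With the replicate number as a block, 0 of the 36 genes passed in either fit, the median difference was 0.11, the median slope 0.05 and the Myc difference -0.45; over all tested genes 0 passed by group, and 4 with positive and 3 with negative slopes. Deviations from group means of same-numbered libraries had correlations of 0.13, -0.058, 0.065 and 0.070, and not every library correlated best with its own number, so the numbers were not taken as pairs. Over all tested genes, calls along Myc numbered 2 with positive and 2 with negative slopes, 1030 and 83 with array weights, and 17 and 3 without control replicate 4. With 4 livers a group, half-widths near 0.39 on the log2 scale limit what a difference between groups can show. Depth per gene was not examined.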
